A study of Xenopus tropicalis with 45 samples.

Results

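The ribosomal protein genes of the frog *Xenopus tropicalis* are described here at the start of gastrulation, in tissue explants with and without inhibitors of histone deacetylases. Members were found by name: gene identifiers that read rpl or rps followed by digits and at most one of the letters a, x, l or y, together with rpsa, rplp0, rplp1 and rplp2. The rule found 76 genes among the 28850 of the expression files, 30 of the small subunit (rps and rpsa) and 46 of the large subunit (rpl and rplp). The rule reads names and no measured value, though it was set with earlier results of these data known. A few cytosolic ribosomal proteins carry other names, of which fau and rack1 are given apart, and rps20, rps28 and rpl41 were not analysed here under those names.

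The RNA-seq data are 16 libraries from wildtype animal cap (AC) and vegetal mass (VG) explants, with 2 biological replicates in each of 8 groups. The libraries were made from mRNA selected by its poly(A) tail. In the TSA experiment, embryos were kept from the 4-cell stage in 100 nM trichostatin A (TSA) or in its solvent DMSO, and in the VPA experiment in 10 mM valproic acid (VPA) or in water. Explants were cut from late blastulae and grown to st10.5, the early gastrula. AC cells are the source of ectoderm and VG cells of endoderm. Chromatin data are 13 lists of ChIP-seq peaks for the histone deacetylases Hdac1 and Hdac2, the transcription factor Sox3 and pan-acetylated histone H3 (pan-H3Kac) in wildtype whole embryos at st8, st9 or st10.5, or in AC and VG explants kept in DMSO. For 4 of the Hdac1 lists the whole embryos had been kept in DMSO or in 100 nM TSA, at st9 and at st10.5.

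Ribosomal proteins coat the ribosomal RNA of the small and the large subunit, and cells need them in nearly equal numbers. Their mRNAs are short and abundant, and in vertebrates most begin with a run of pyrimidines that ties their translation to growth signalling. An early frog embryo lives on ribosomes laid down in the egg, and the zygotic genes become active around the midblastula. Histone deacetylases remove acetyl groups from histone tails, and acetylated H3 marks the starts of active genes.

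The libraries held 16892304 to 54350327 counts, and 45269 to 192538 of these lay on the 76 genes. Markers fitted the labelled tissues, since 9 of 10 ectoderm markers were higher in AC and 10 of 10 endoderm markers were higher in VG in both experiments. A pair of technical features bears on the results. In the TSA experiment both AC libraries of replicate 2 held 35.0% (DMSO) and 39.4% (TSA) ribosomal RNA counts, whereas the other 14 libraries held 0.73% to 4.38%. The second feature is the length over which RSEM, the authors' quantification tool, spread the reads. Transcript length minus effective length was 100 nt in each of the 4 AC libraries of the TSA experiment, 199 to 202 nt in its 4 VG libraries and 257 to 265 nt in all 8 libraries of the VPA experiment. In the TSA experiment this offset thus moved with tissue. Whether it had a part in the counts of short transcripts was not tested, which limits the comparison of AC with VG. Members had transcripts of 299 to 1320 nt, with a median of 559 nt. Levels were not compared between the experiments.

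Most ribosomal protein genes were among the abundant mRNAs. Ranked by mean TPM (a level scaled per transcript length and library) over the 16 libraries, 21 members were among the top 500 genes and 45 among the top 1000. The gene rps18, of the small subunit head, led with a mean of 1026 TPM. It was followed by rpl13 at 701, rps25 at 629, rps14 at 577 and rpl15 at 576 TPM. Within the experiments taken apart rps18 and rpl13 led in both, and the place of rpl15 came from the VPA experiment, where it ranked 3 among the members, while in the TSA experiment rplp0 (376 TPM), rpl4 (357 TPM) and rplp1 (353 TPM) followed rps14 (382 TPM). The near-equal means of rps14 and rpl15 over the 16 libraries hide opposite orders. In the TSA experiment rps14 had the higher mean (382 against 282 TPM), and in the VPA experiment rpl15 did (871 against 771 TPM). Over the libraries rps14 lay between 209 and 892 TPM and rpl15 between 230 and 932 TPM. At the low end were rpl35a at 76.6 TPM, rpl34 at 67.3 and rpl29 at 56.8.

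A pair of paralogs stood far below the rest. The level of rps27l, a copy of rps27, was 1.56 to 10.6 TPM. The gene rpl3l, which replaces rpl3 in mammalian muscle, had 0.00 to 0.75 TPM and was the single member that failed the filter on low counts, so 75 members were tested in each experiment. Reads that match several genes were divided among them by the authors' tool, so rps27 and rps27l, and rpl3 and rpl3l, are uncertain to that extent.

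Some members differed more by replicate than by group. The gene rpsa, whose protein sits on the small subunit and is also known as a laminin receptor, had TMM-scaled CPM (counts scaled to library size, not per length) of 36.7 and 100.7 in VG DMSO replicates 1 and 2, and 34.6 and 98.0 in VG TSA replicates 1 and 2. In the VPA experiment rplp0, the base of the stalk that recruits elongation factors, had 157 and 251 in AC H2O replicates 1 and 2, and 137.5 and 274 in VG H2O replicates 1 and 2. In both genes replicate 2 was high in VG whatever the treatment.

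The comparison of AC with VG asks how evenly the ribosomal protein genes are expressed along the animal-vegetal axis. In the DMSO libraries the members were higher in AC. Their counts outside ribosomal RNA genes made up 0.508% and 0.343% in AC DMSO replicates 1 and 2, against 0.286% and 0.279% in VG DMSO. In bulk tissue, fewer cells of a type and less RNA per cell cannot be told apart. By edgeR's quasi-likelihood test, 14 of 75 members rose in AC over VG at a Benjamini-Hochberg adjusted p under 0.05 and none fell, where 11.7% of all 15232 genes tested were called higher and 14% lower. The fold exceeded 2 in 12 of the 14, against 9.67% of all genes. The fitted log2 difference was positive for 73 of 75 members, with a median of 0.65, where the median of all genes was -0.0025. In 55 members both AC libraries lay above both VG libraries, as they did for 30.1% of all genes.

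**Figure D1:**
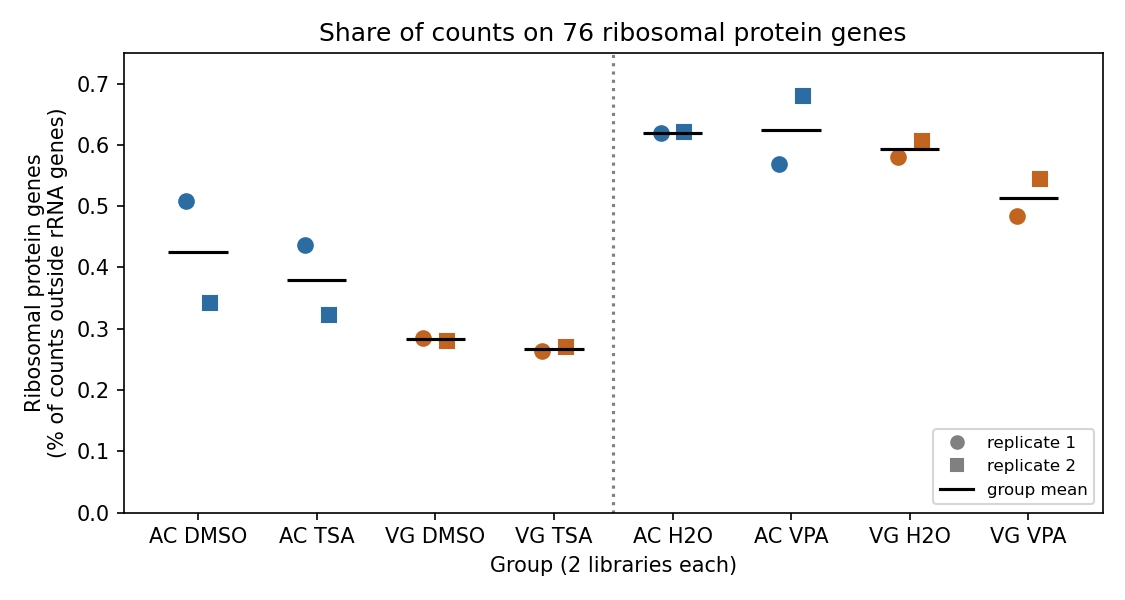
Counts on the 76 ribosomal protein genes as a percentage of all counts outside ribosomal RNA genes (y axis) in each library (circles, replicate 1; squares, replicate 2) of the 8 groups (x axis), with the group mean as a line; blue is AC and orange VG. AC DMSO spans 0.343% to 0.508% and lies above VG DMSO, while AC H2O (0.619% and 0.621%) lies close to VG H2O (0.581% and 0.606%).

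The largest difference was in rpl10a, a protein of the stalk next to the exit site. It had 58.4 and 29.3 CPM in AC DMSO replicates 1 and 2 and 15.7 and 16.3 CPM in VG DMSO. Both AC libraries were high, replicate 1 far more so, and the log2 difference was 1.45 ± 0.36 (SE, n = 2 per group; edgeR adjusted p = 0.028). The gene rps3a, of the small subunit, had 43.1 and 35.8 CPM in AC DMSO against 15.6 and 16.3 CPM in VG DMSO. These groups stood apart with little spread, and the level in AC was 2.47-fold that in VG (SE of the log2 difference 0.20; edgeR adjusted p = 0.0052).

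The gene rps2, near the entry of the mRNA channel, had 88.3 and 58.0 CPM in AC DMSO and 25.4 and 35.2 CPM in VG DMSO, a log2 difference of 1.27 ± 0.35 (SE; edgeR adjusted p = 0.037). Other members past a fold of 2 were rpl12 (log2 difference 1.28), rps9 (1.24), rps3 (1.16), rps4x (1.16), rps23 (1.14), rpl7a (1.06), rps6 (1.04) and rpl32 (1.01). The 2 called below that fold were rpl37 (0.96) and rps7 (0.83). Among them rps6 is the classical substrate of S6 kinase, and rps23, rps2 and rps3 lie around the decoding and entry sites. Only rps27l, at -0.66, and rpsa, at -0.11, were negative, and neither passed the test.

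The difference was smaller in a fit on effective lengths. Whether the 100 nt recorded for the AC libraries is right was not tested, so neither fit can be preferred. When each library's effective lengths entered the fit (an alternative chosen after seeing the data), the members' median fell to 0.34, with 65 of 75 positive. Under this fit 8 members were called higher and none lower, where 11.8% of all genes were called higher. They included rps3a, rps3, rpl7a, rpl10a, rpl12, rps9 and rps2, led by rpl10a at 1.39 and rps3a at 1.18. In the fit on counts, the members' median was 0.36 without AC DMSO replicate 1 and 0.89 without AC DMSO replicate 2. Within replicate 1 the median log2 ratio of AC to VG was 0.89 and within replicate 2 it was 0.36. Tissue and the length offset cannot be told apart in the DMSO libraries.

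In the water libraries, where the length offset was alike in both tissues, the difference was smaller. No member was called by edgeR (5 at an unadjusted p under 0.05, and 3 by DESeq2, all higher in AC). Of all 15166 genes, 9.44% were called higher by edgeR and 11.2% lower, and 13% higher by DESeq2. The share of all genes at the unadjusted p is not given here. With the replicate number as a block edgeR called 3 members higher (rps2, rpl18 and rps23), where 18.4% of all genes were. The median log2 difference was 0.17, with 58 of 75 positive, and within replicates 1 and 2 the median ratio was 0.16 and 0.14. Both AC libraries lay above both VG libraries in 31 members, against 28.7% of all genes.

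The members with the lowest p in water, chosen after their values were seen, were rps2, rps23 and rpl32. The gene rps2 had 146.5 and 124 CPM in AC H2O and 87.1 and 85.9 CPM in VG H2O, a log2 difference of 0.64 ± 0.20 (SE; edgeR adjusted p = 0.061). The gene rps23 differed by 0.68 ± 0.23 (edgeR adjusted p = 0.082) and rpl32 by 0.77 ± 0.27 (edgeR adjusted p = 0.089). The groups of rps2 did not overlap. The experiments share no library, and over the 75 members their AC minus VG differences correlated with Pearson's r = 0.70 (Spearman's rho = 0.72), against r = 0.81 over 14548 genes tested in both. These are correlations across genes, which are not independent replicates and share depth and scaling.

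The inhibitor comparisons ask whether blocking histone deacetylases alters the ribosomal protein genes in either tissue. Most members had lower fitted levels with either inhibitor, yet none passed the test by edgeR in the fit without a replicate term. With a replicate term within each tissue, chosen after seeing the data, 39 members fell with TSA in AC (12.2% of all genes). In that fit 3 fell with TSA in VG (1.76% of all genes), and none was called with VPA. Without the term, the fitted log2 change was negative for 72 of 75 members with TSA in AC, 65 with TSA in VG, 61 with VPA in AC and 74 with VPA in VG. Their medians were -0.33, -0.11, -0.19 and -0.32, and the median of all genes lay between -0.01 and 0.01.

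In the fit without a replicate term, members called by edgeR at an adjusted p under 0.05 numbered 0 of 75 in each of these comparisons. The share of all genes called in either direction was 2.34% for TSA in AC, 0.0131% for TSA in VG, 2.35% for VPA in AC and 0% for VPA in VG. At an unadjusted p under 0.05 there were 11 members for TSA in AC, 0 for TSA in VG, 8 for VPA in AC and 11 for VPA in VG. The share of all genes at that unadjusted p is not given here, so these counts cannot be read as an excess. DESeq2 called 3 members lower for TSA in AC, where it called 3.8% of all genes lower, 1 lower for VPA in VG, where it called 1.68%, and 0 in the others. With the replicate number as a block edgeR called 1 member for VPA in AC, rps12, which rose, where 6.12% of all genes were called higher.

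**Figure D2:**
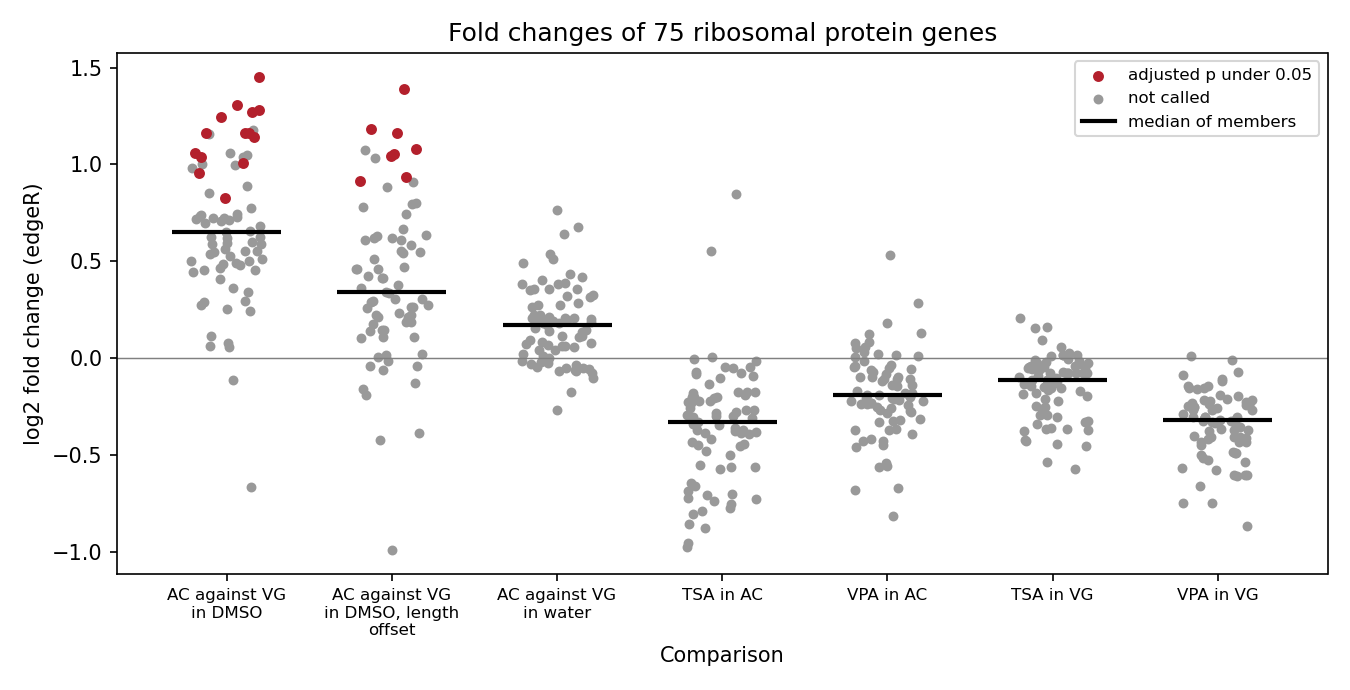
Log2 fold changes from edgeR (y axis) of the 75 tested ribosomal protein genes, 1 point per gene, in each comparison (x axis); red points passed an adjusted p of 0.05 and the black line is the median. The AC against VG difference in DMSO (median 0.65) falls to 0.34 with the effective length offset, water gives 0.17, and the inhibitor medians lie between -0.33 and -0.11.

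Within replicates, the ratios of inhibitor to control libraries of the same number gave these values. For TSA in AC the median log2 ratio was -0.35 in replicate 1 and -0.23 in replicate 2, and 68 of 75 members were lower in both, against 34.1% of all genes. For TSA in VG it was -0.17 and -0.09, and 48 members were lower in both, against 30.4%. For VPA in VG it was -0.39 and -0.21, and 70 were lower in both, against 36.3%. For VPA in AC it was -0.39 in replicate 1 and 0.01 in replicate 2, and 35 were lower in both, against 32.7%. The lower levels with VPA in AC thus rested on replicate 1, since 70 members were lower there and 35 in replicate 2.

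Groups stood fully apart less often. Both treated libraries lay below both controls for 21 members with TSA in AC (14.1% of all genes), 28 with TSA in VG (12.1%), 30 with VPA in AC (20.5%) and 52 with VPA in VG (16.4%). A member above its controls in both treated libraries was found once with TSA in AC (17.2% of all genes), 4 times with VPA in AC (22.1%) and not at all with TSA in VG (9.38%) or VPA in VG (18.6%).

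In the TSA experiment the AC libraries of replicate 2 stood apart in depth and ribosomal RNA, so the fit was repeated with the replicate number as a term within each tissue, a choice made after seeing the data. In this fit 39 members fell with TSA in AC and 1 rose, where 12.2% of all genes were called lower. The members' median was -0.32, close to that of the fit without the term. Libraries were left out only in the fit without the term. There the median was -0.06 without AC DMSO replicate 1 and -0.65 without AC TSA replicate 1.

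The members named next were chosen after their values were seen. The gene rpl37, a small zinc-binding protein of the large subunit, had 30.3 and 24.6 CPM in AC DMSO and 15.1 and 12.8 CPM in AC TSA. The AC TSA and AC DMSO groups did not overlap. In CPM both AC TSA libraries were about as low as VG DMSO (14.36 and 13.90 CPM). In TPM they were lower, at 142.55 and 99.31 against 217.9 and 213.3 TPM in VG DMSO, so this likeness depends on the unit. The log2 change was -0.98 ± 0.23 (SE, n = 2; edgeR adjusted p = 0.098), the lowest of all members. With VPA in AC its level was 66.3 and 43.6 CPM in water and 26.0 and 36.4 CPM in VPA, a log2 change of -0.82 ± 0.29 (SE; edgeR adjusted p = 0.23).

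The gene rpl34, also of the large subunit, had 15.46 and 11.01 CPM in AC DMSO and 7.63 and 6.04 CPM in AC TSA. Its log2 change was -0.95 ± 0.34 (SE; edgeR adjusted p = 0.27). In VG it had 15.97 and 15.15 CPM in water and 8.40 and 8.65 CPM in VPA, with replicates close to each other and the groups apart. That log2 change, -0.87 ± 0.23 (SE; edgeR adjusted p = 0.28), was the lowest of the members with VPA in VG.

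The gene rps2 had lower levels in every treated library than in the control of its number. With TSA in AC it was 47.7 and 36.2 CPM, against 88.3 and 58.0 CPM in DMSO, and with VPA in AC it was 80.9 and 102.5 CPM, against 146.5 and 124 CPM in water. The log2 changes were -0.80 ± 0.34 and -0.56 ± 0.20 (SE; edgeR adjusted p = 0.40 and 0.22). With TSA in VG it was 15.8 and 26.1 CPM, against 25.4 and 35.2 CPM, and these groups overlapped. With VPA in VG it was 47.4 and 62.1 CPM, against 87.1 and 85.9 CPM, and these did not.

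The levels of rps12 were higher with both inhibitors in AC. The scarce rps27l had fitted log2 changes of 0.85 and 0.28, but the first rested on replicate 1. Its replicates 1 and 2 were at 0.83 and 0.34 CPM in AC DMSO and 1.76 and 0.33 CPM in AC TSA, and these groups overlapped. The gene rps12 encodes a small subunit protein whose fly counterpart takes part in cell competition between cells of unequal ribosome dose. It had 31.1 and 24.2 CPM in AC DMSO and 47.8 and 33.4 CPM in AC TSA, a log2 change of 0.55. In the VPA experiment it had 41.1 and 34.8 CPM in AC H2O and 51.4 and 58.3 CPM in AC VPA, a log2 change of 0.53 ± 0.15 (SE; edgeR adjusted p = 0.14). Both treated libraries lay above both controls in AC with each inhibitor. In VG it was at 19.1 and 18.6 CPM in DMSO and 18.2 and 23.9 CPM in TSA, with the groups overlapping, and at 36.7 and 36.9 CPM in water and 36.9 and 37.4 CPM in VPA. It was the member that rose with TSA in AC in the fit with a term for the replicate number within each tissue, with a log2 change of 0.54 (edgeR adjusted p = 0.018).

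**Figure D3:**
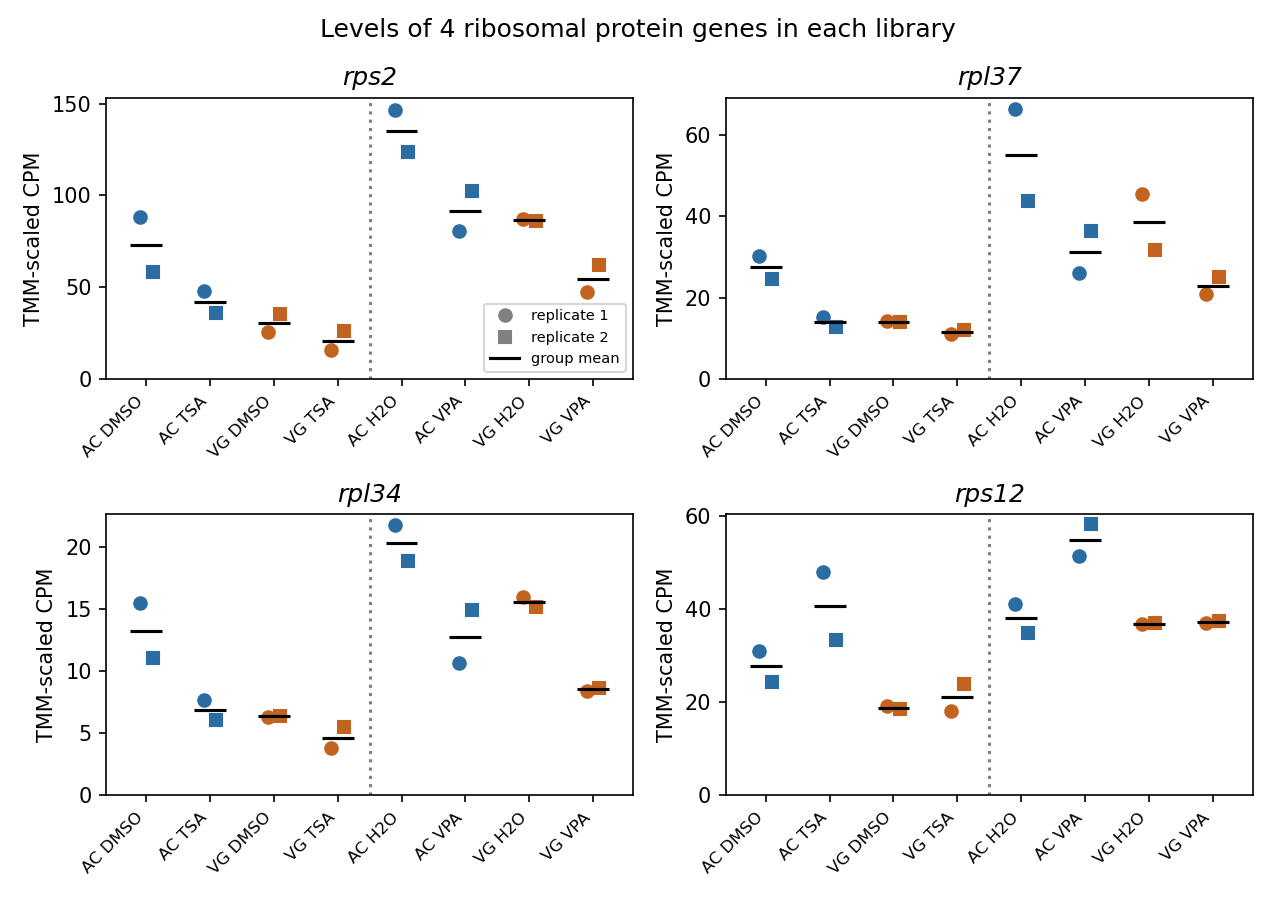
TMM-scaled CPM (y axis) of rps2, rpl37, rpl34 and rps12 in each library of the 8 groups (x axis; circles, replicate 1; squares, replicate 2; black line, group mean; blue, AC; orange, VG); the dotted line separates the experiments, which were scaled separately. In AC, rps2, rpl37 and rpl34 lie lower and rps12 higher in both TSA libraries than in both DMSO libraries.

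The order of the members was similar under both inhibitors, in libraries that the experiments do not share. Over the 75 members in AC, the TSA and VPA log2 changes correlated with Pearson's r = 0.84 (Spearman's rho = 0.82), and 62 had the same sign. In VG it was r = 0.65 (rho = 0.63), and 66 had the same sign. Most members were negative with each inhibitor, so like signs say little about their order. Over the 14548 genes tested in both experiments r was 0.72 in AC and 0.55 in VG. These correlations are across genes, which share depth, scaling and tissue, and are given as descriptions. In AC the genes rpl37, rpl34, rpl32 and rps2 lay at the low end with each inhibitor, and rps12 and rps27l at the high end. The place of the scarce rps27l with TSA rested on replicate 1.

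**Figure D4:**
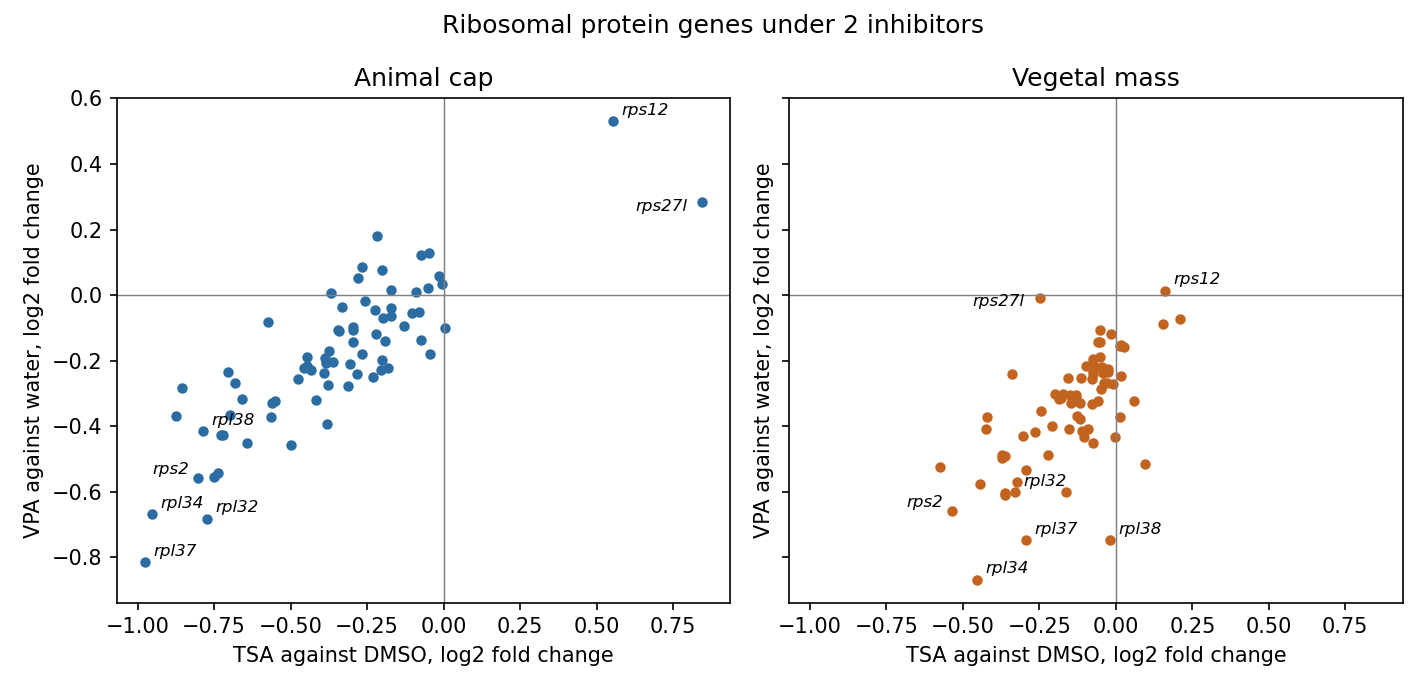
Log2 fold change with TSA (x axis) against log2 fold change with VPA (y axis) for the 75 tested ribosomal protein genes in AC (left) and VG (right), 1 point per gene. In AC rpl37 (-0.98, -0.82) lies lowest on the TSA axis and rps27l (0.85, 0.28) and rps12 (0.55, 0.53) highest. The TSA value of the scarce rps27l rests on replicate 1. In AC 60 of the 75 lie below 0 on both axes, and in VG 65 do.

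The subunits were also set side by side, with no test of their difference. For TSA in AC the median was -0.38 over 30 small subunit genes and -0.30 over 45 large subunit genes, and for VPA in VG it was -0.33 and -0.31. Across members the TSA change in AC had a Spearman's rho of 0.06 with transcript length, and the VPA change in VG a rho of 0.19. For the AC against VG difference in DMSO, where the length offset differed between the tissues, the rho with transcript length was 0.13.

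The difference of an inhibitor's change between the tissues was tested with an interaction term. For TSA the median difference of the log2 changes (AC minus VG) was -0.23, and no member was called by edgeR (0 at an unadjusted p under 0.05 and 0 by DESeq2), where 0.0853% of all genes were called. For VPA the median was 0.16, and again no member was called (0 at an unadjusted p under 0.05 and 0 by DESeq2), where 0.00659% of all genes were. Without AC DMSO replicate 1 the TSA median was 0.05, and without AC VPA replicate 2 the VPA median was -0.02.

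Peaks were assigned to a gene when their summit lay within 1 kb of either end of its annotated span in the v10.0 assembly, since the strand was not at hand. All 76 members have a span. For 20 of them the end of another protein-coding gene lies within 1 kb of an end, such as vps52 at rps18 and sec24b at rpl34, and a peak there cannot be given to one gene alone. Shares are set beside those of the 13904 protein-coding genes tested in both experiments. The lists hold no replicate values, so no test was made.

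Acetylated H3 marked most ribosomal protein genes, and its peaks there were high. In whole embryos at st10.5, 67 of 76 members (88.2%) had a pan-H3Kac peak, against 65.3% of tested genes. The highest peak at each of these members had a median fold enrichment over input of 25.6, against 11.2 at tested genes with a peak and 5.50 over the whole list. The widest peak at each member had a median width of 1992 bp, and all peaks of the list one of 905 bp. These are unlike measures, and widths at tested genes with a peak were not compared. In AC explants 68 members (89.5%) had a peak, against 60.1% of tested genes, and in VG explants 70 (92.1%), against 51%.

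Among the highest peaks were those at rpl32 (37.7-fold), rps29 (36.8-fold), rps13 (35.7-fold) and rps2 (35.6-fold). The peak of rpl32 spans chr4:131837174-131840177 and covers one end of the gene (chr4:131834204-131839407), with its summit 129 bp from that end. The peak of rps2 spans chr9:16954816-16957284, with its summit 151 bp from an end of the gene (chr9:16955534-16959789).

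In 9 members no pan-H3Kac summit in whole embryos lay within 1 kb of an end. In 3 of them a high peak lay inside the annotated span instead. At rpl37 (chr1:195886631-195895779) a 28.6-fold summit was 3993 bp from the nearer end, at rpl15 a 25.7-fold summit was 2448 bp away, and at rps27 a 41.2-fold summit was 2008 bp away. At rps15a a 27.5-fold summit lay 1492 bp outside the span. The nearest summits of rpl7 (3.14-fold), rplp0 (11.8-fold) and rps27a (8.97-fold) were 6729, 5546 and 16386 bp away, though all of these had a peak at an end in VG explants (11.9, 4.22 and 15.9-fold), and rplp0 in AC explants as well. The remaining 2 were the scarce paralogs, rps27l with its nearest summit 11863 bp away and rpl3l with its nearest 4533 bp away.

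All 68 members with a peak in AC also had one in VG, and rpl7 and rps27a had one only in VG. The fold was lower in VG for 68 of 68, with a median ratio of 0.775, from 4.22 against 8.36 at rplp0 to 15.9 against 16.7 at rpl3. Among 6135 tested genes with a peak in both lists the median ratio was 0.737 and 86.2% were lower in VG, so the shift at the members was close to that of all genes. The lists were called separately, and enrichments at summits depend on the depth of each library.

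In the replicated lists Hdac1 was found at few ribosomal protein genes before gastrulation. At st8, 2 of 76 members (2.63%) had an Hdac1 peak, against 1.6% of tested genes, and at st9, 1 of 76 (1.32%) had one, against 6.26%. The first 2 were rpl10 and rps13, and the third count was rps13 again. At rps13 (chr4:2312104-2318934) the st8 peak had a fold of 9.68 with its summit 457 bp from an end, the st9 peak a fold of 5.77 and the st10.5 peak a fold of 10.54. At rpl10 the st8 peak had a fold of 7.04, no st9 peak was listed, and the st10.5 peak had a fold of 6.14. The end of dnase1l1 lies within 1 kb of rpl10.

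At st10.5, 36 of 76 members (47.4%) had an Hdac1 peak, against 54.2% of tested genes. The median fold was 4.73, against 5.77 at tested genes with a peak. Of the 36, 33 also had a pan-H3Kac peak (91.7%), against 82.9% of tested genes with an Hdac1 peak and 88.2% of all members. The pan-H3Kac fold was higher than that of Hdac1 in all 33, and among 6250 tested genes with both it was lower in 17.2%. The median ratio was 5.09 at the members, against 2.01 over these tested genes. Folds from different antibodies and lists share no scale, so which of them is higher at a gene has no meaning by itself. The ratio also follows the higher pan-H3Kac folds of the members given above. The 36 members with an Hdac1 peak and the 39 tested members without one had median log2 changes of -0.30 and -0.35 with TSA in AC, and of -0.31 and -0.32 with VPA in VG.

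**Figure D5:**
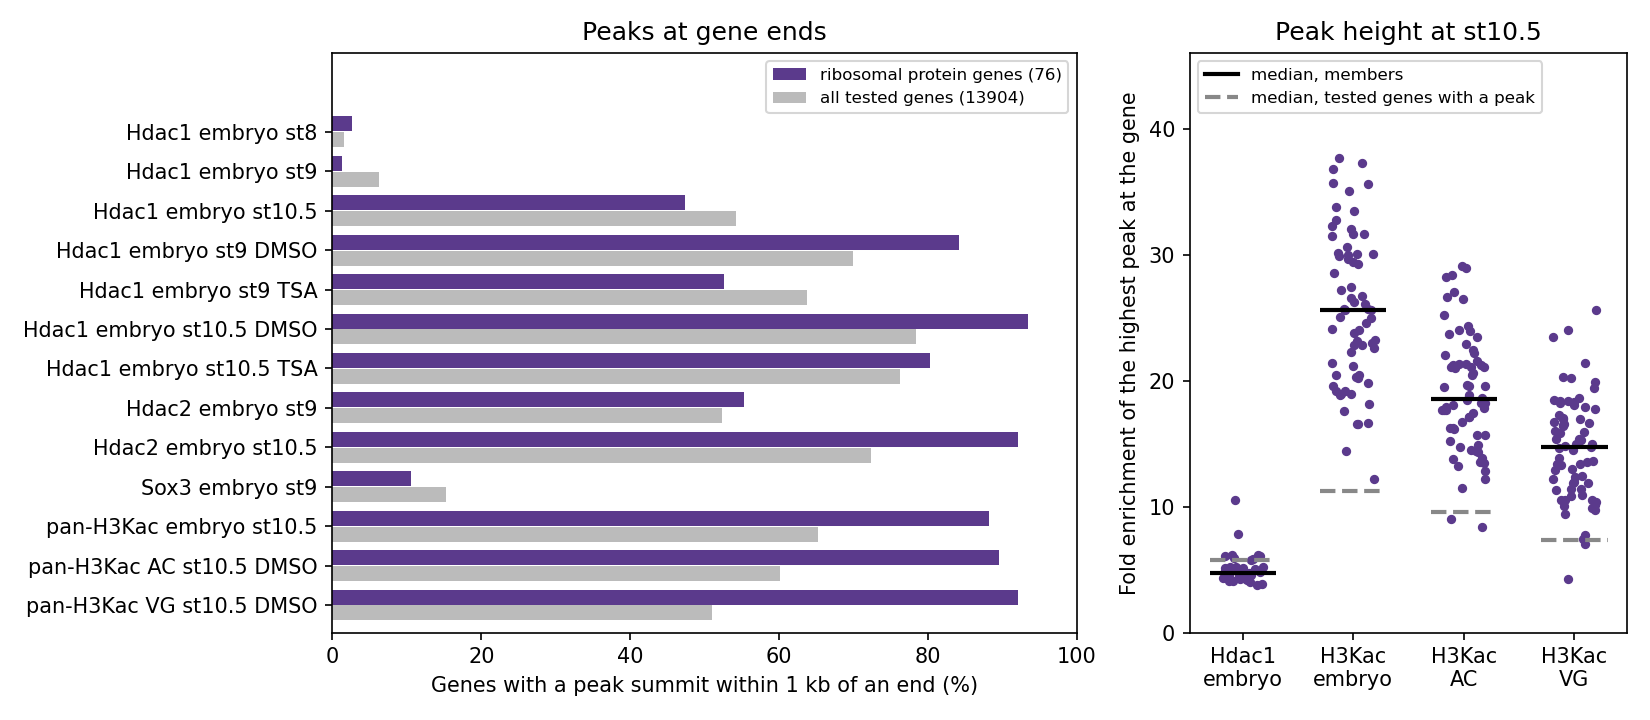
Left, percentage of the 76 ribosomal protein genes (purple) and of 13904 tested genes (grey) with a peak summit within 1 kb of an end (x axis) in each of the 13 lists (y axis; embryo, whole embryos). Right, fold enrichment over input (y axis) of the highest peak at each member with one, in 4 lists at st10.5 (x axis), with medians of members (solid) and of tested genes with a peak (dashed). Hdac1 is listed at 1 of 76 members at st9 and 36 at st10.5, and the pan-H3Kac medians of members (25.6, 18.6 and 14.8) lie above those of tested genes (11.2, 9.55 and 7.39).

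The lists from single libraries hold more peaks and gave larger counts. They were not filtered for agreement between replicates and come from other libraries, and the cause of the larger counts was not tested. With DMSO, Hdac1 peaks were listed at 64 members (84.2%) at st9, against 70% of tested genes, and at 71 (93.4%) at st10.5, against 78.4%. The share of members thus lay above that of tested genes here, whereas in the replicated st9 and st10.5 lists it lay below. With TSA, Hdac1 peaks were listed at 40 members (52.6%) at st9, against 63.8%, and at 61 (80.3%) at st10.5, against 76.2%. All 40 of the st9 members with a peak in TSA had one in DMSO, and 24 had one in DMSO only. Of the members with a DMSO peak at st9, 62.5% thus had one in TSA, against 83.8% of tested genes with a DMSO peak. Of the 61 at st10.5, 60 had one in DMSO, 11 members had one in DMSO only, and rps27l had one in TSA only. At this stage 84.5% of the members with a DMSO peak had one in TSA, against 92% of such tested genes.

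Where both treatments gave a peak, the fold with TSA was lower for 33 of 40 members at st9 (median ratio 0.737, against 0.761 over tested genes) and for 54 of 60 at st10.5 (0.771 against 0.83). Each treatment is 1 library, so the difference has no replicate check. Many of these peaks were weak. At a −log10 q of at least 10, 20 of 76 members kept an Hdac1 peak with DMSO and 6 of 76 with TSA at st9, against 38.4% and 22.3% of tested genes. At this cutoff the share of members thus lay below that of tested genes with DMSO too, unlike in the full st9 DMSO list.

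Hdac2, the close relative of Hdac1, was listed at 42 members (55.3%) at st9, against 52.3% of tested genes. At st10.5 it was listed at 70 (92.1%), against 72.3%, also from 1 library per stage. All 36 members with an Hdac1 peak in the replicated st10.5 list had an Hdac2 peak there, as did 96.7% of tested genes with an Hdac1 peak. The highest Hdac2 fold among members at st10.5 was at rps13. Sox3, an activator of the ectodermal programme, was listed at 8 members at st9 (rpl10, rpl14, rpl22, rpl27, rpl31, rpl6, rps21 and rps27a), against 15.2% of tested genes, and 4 of these 8 have another gene's end within 1 kb.

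Of the ribosomal protein genes named otherwise, fau had a log2 change of -0.27 with TSA in AC and a log2 difference of 0.51 in AC against VG in DMSO. For rack1 these values were -0.04 and 0.54, and neither gene passed the test in any comparison. Of 77 mitochondrial ribosomal proteins tested, 3 rose and 8 fell in AC against VG in DMSO, and 1 rose and 11 fell in water, with medians of -0.15 and -0.18. Among all genes 11.7% were called higher and 14% lower in DMSO, and 9.44% higher and 11.2% lower in water. With the inhibitors 0 of 77 were called by edgeR in each comparison, with medians between -0.07 and 0.04.

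Of 34 genes of ribosome biogenesis, 10 rose in AC over VG in DMSO and 5 in water, and none fell. The shares of all genes called higher were 11.7% in DMSO and 9.44% in water. The largest were nolc1 (log2 difference 1.76 in DMSO and 1.44 in water), a nucleolar phosphoprotein, followed in DMSO by wdr12 (1.47) and utp15 (1.35) and in water by gnl3 (0.96) and nop56 (0.64). With TSA in AC wdr12, of the complex that processes large subunit rRNA, fell by 2.10 on the log2 scale, utp15 fell by 1.37, and myc, a transcription factor that drives ribosome production, rose by 1.27. Among all genes 1.04% were called lower and 1.31% higher in that comparison. With VPA in AC wdr12 fell by 1.90, ncl, which encodes nucleolin, fell by 0.95 and gnl3 fell by 0.78, where 0.923% of all genes were called lower. In VG none of the 34 passed the test with either inhibitor.

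Of 19 translation factors tested, eif4g1 (2.23 in DMSO and 1.81 in water) and eif4a1 (0.68 and 0.65) rose in AC over VG in both experiments. These encode the scaffold and the helicase of the cap-binding complex. In DMSO eef1a1 also rose (1.11) and eif6 fell by 0.74 on the log2 scale, and in water pabpc1 rose (0.44). Thus 3 of the 19 rose and 1 fell in DMSO, where 11.7% of all genes were called higher and 14% lower. In water 3 rose and none fell, where 9.44% were called higher and 11.2% lower. With VPA in AC eif4a1 fell by 1.19 and eif4g1 fell by 1.03, where 0.923% of all genes were called lower. With TSA none of the 19 was called. Of 7 regulators of mRNAs with a 5′ pyrimidine run, mtor, larp1 and larp4 rose in AC over VG in both experiments, with log2 differences of 0.94, 0.98 and 1.88 in DMSO and 0.53, 1.12 and 1.05 in water, and none was called with an inhibitor. The shares of all genes called higher in AC, 11.7% and 9.44%, stand beside these 3 of 7 as well.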

How the data were processed

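The expected counts per gene were made by the authors with STAR 2.7.3a and RSEM 1.3.3 on the *X. tropicalis* v10.0 genome and are not normalized, and RSEM also gave the deposited TPM. Peaks were called by the authors with MACS2 2.7.1, whose deposited fold enrichment and −log10 q were used. The Sox3 list holds a deposited score of the IDR tool. Hdac1 (st8, st9, st10.5) and Sox3 peaks passed an IDR of 0.05, pan-H3Kac peaks were found in both replicates, and the other lists are single libraries. Versions are from the submitters' processing notes. Replicates are described as independent biological ones.

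Rounded expected counts were fitted with edgeR 4.0.16 in R 4.3.3 (TMM, filterByExpr, 4 group means per experiment, quasi-likelihood test), with p-values adjusted over all genes. The edgeR step was tested on simulated data with 200 changed genes. Gene spans came from RefSeq (UCB_Xtro_10.0). Within-replicate ratios used TMM-scaled CPM plus 0.5. Alternatives were DESeq2 1.42.0, RLE and upper quartile scaling, other filters and sets of libraries, a replicate block, removal of rRNA genes, limma 3.58.1 on log2(TPM + 1) or log2(TPM + 0.1), and each library left out. The effective length offset (genes of at least 20 nt effective length), the block within each tissue and the summed TPM without rRNA genes were added after seeing the data.

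Members and lists were chosen with earlier results of these data known. Members named with values were, by rule, those called with the largest changes, the 5 highest and 5 lowest in TPM, those failing the filter, those with an Hdac1 peak at st8 or st9, those with no pan-H3Kac peak in whole embryos and the 5 with the highest one. Of other lists the 3 largest called changes were named. No genome sequence was at hand, so no sequence is shown. A few genes named by these rules are not reported here by name, though counts and medians include them.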

Additional observations from a re-analysis of the deposited data

How the results depend on the processing

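Every inhibitor comparison kept 0 calls under edgeR with other filters and scalings. The AC against VG count in DMSO (14 by edgeR) was 34 with all 16 libraries in one fit (14.9% of all genes called higher, against 11.7%), 28 with DESeq2 (16.8%), 22 with RLE scaling (12.6%), 9 with only the 4 libraries of the contrast (10.6%) and 8 with the effective length offset (11.8%). With limma on TPM it was 1 at either pseudocount (8.04% and 7.96%), with medians of 0.03857 and 0.03881, where the medians of all genes were -0.3025 and -0.2316. The median was 0.3573 without AC DMSO replicate 1 and 0.8932 without AC DMSO replicate 2. The AC to VG ratio of the members' summed TPM was 1.08 with ribosomal RNA genes in the TPM and 1.25 without them (added after seeing the data), against 1.51 for their share of counts outside those genes.

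In water DESeq2 called 3 higher (13% of all genes), and limma 1 higher at pseudocounts of 0.1 and 1 (8.14% and 8.07%). The water median was 0.1494 with all 16 libraries, 0.2026 with upper quartile scaling, 0.09562 and 0.09435 with limma, and 0.09906 to 0.211 with a library left out. DESeq2 called 3 lower for TSA in AC (3.8% of all genes) and 1 lower for VPA in VG (1.68%). For VPA in AC limma called 1 higher at pseudocounts of 0.1 and 1 (2.22% and 2.7%). With limma at pseudocounts of 0.1 and 1 the median was -0.2406 and -0.2355 for TSA in AC (all genes 0.09862 and 0.08142), -0.02698 and -0.0268 for VPA in AC (all genes 0.1878 and 0.15) and -0.1766 and -0.1764 for VPA in VG (all genes 0.1239 and 0.09772). With a library left out it was -0.6467 to -0.06033 for TSA in AC, -0.1875 to -0.06662 for TSA in VG and -0.3662 to -0.04416 for VPA in AC. The TSA interaction median was -0.2817 with all 16 libraries, -0.2186 with at least 10 counts in every library, -0.2894 with DESeq2, -0.2107 with the length offset, -0.1465 and -0.1456 with limma, -0.2843 without ribosomal RNA genes, -0.2893 with RLE and -0.205 with upper quartile scaling, and -0.5194 to 0.05316 with a library left out. That of VPA was -0.02099 to 0.2899. The cause was not tested.

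Replicate numbers were no stated pairing. Deviations of same-numbered groups correlated at 0.8 within AC, 0.775 within VG and -0.0951 to -0.0509 between tissues in the TSA experiment, and at 0.461 to 0.631 in the VPA experiment. A replicate block gave 27 calls for AC against VG in DMSO (15.2% of all genes called higher), 3 in water and 1 for VPA in AC. A replicate block within each tissue gave 40 calls for TSA in AC (39 lower, where 12.2% of all genes were). It gave 3 for TSA in VG (all lower, against 1.76%) and 2 for the TSA interaction (all lower, against 3.57%). It was not used for AC against VG, a contrast that it would take at 1 replicate. A replicate block within each tissue together with the length offset gave 41, 3 and 1 and a TSA interaction median of -0.2183. Of these 40, 3 and 1 were lower, where 12.1%, 1.72% and 3.57% of all genes were. In neither fit did the interaction count exceed the share of all genes.

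Within 10 kb of the span, Hdac1 peaks were at 5 members at st8, 7 at st9, 56 at st10.5 and 64 at st9 with TSA, and Sox3 peaks at 23. Within 10 kb of an end, the shares of members and of tested genes were 6.58% and 5.65% at st8, 9.21% and 17.5% at st9 and 73.7% and 70.6% at st10.5. For Hdac1 at st9 with TSA they were 84.2% and 83.4%, and for Sox3 30.3% and 40.4%. By nearest gene the counts were 4 at st8 and 5 at st9, and within 500 bp Sox3 was at 5 (6.58%, against 12% of tested genes). Peaks above the median of their list were at 0 (Hdac1 st9), 9 (st10.5), 31 (st9 DMSO), 17 (st9 TSA), 46 (st10.5 DMSO), 25 (st10.5 TSA), 13 and 28 (Hdac2 st9 and st10.5) and 0 (Sox3) members. At a −log10 q of at least 10 they were at 20 (st9 DMSO), 6 (st9 TSA), 12 (st10.5 TSA), 5 and 25 (Hdac2 st9 and st10.5). Shares of tested genes are given only for the distance windows and, at that q, for st9 DMSO and st9 TSA. The other counts are therefore not read as particular to the members. The check of pyrimidine runs at gene starts was not run.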
